A study of Mus musculus with 4 samples.

Results

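The 6 genes described here are Mpo, Elane, Prtn3, Ctsg, Ms4a3 and Serpinb1a, a group made of genes transcribed when the primary granules of neutrophils are built and of an inhibitor of the granule proteases. They were taken from 18193 genes with a probe set naming that gene alone on Affymetrix mouse whole-genome arrays, and all 7 of their probe sets were used, of 45037 that are not controls. They were chosen with earlier results of the same contrast, space flight against ground control, in view, so their values are given as a description without a test. Only 3 of the 6, Elane, Prtn3 and Ctsg, encode proteases. Mpo encodes a peroxidase, Ms4a3 a membrane protein and Serpinb1a a protease inhibitor.

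Space flight samples were bone marrow cells of C57BL/6 mice grown in 1.5 µg/ml M-CSF, the macrophage colony-stimulating factor, in sealed glass barrels on a space shuttle, and ground control samples were parallel barrels kept on the ground at the same 37 °C profile. All barrels held cells of 1 pool of marrow from 21 adult mice older than 8 weeks, after lysis of red cells, and both groups received guanidinium to lyse the cells on culture day 15, or day 14 of spaceflight. The labels also give culture day 6 for a medium step shared by both groups. Each array held RNA of 2 barrels, with 2 arrays per group picked by the submitters for the best RNA, so the spread between replicates is one between cultures and arrays, not between animals. Values are quantile normalized log2 intensities unless deposited intensities are named, and every difference is space flight minus ground control on that log2 scale.

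The RNA integrity number was 3 for each sample per the labels, a sign of degraded RNA. Gapdh control probe sets gave 3'/5' ratios of 4.09 and 15.2 in space flight replicates 1 and 2, against 4.13 and 3.33 in ground control replicates 1 and 2. Across the 11141 measured genes, those whose mean reached the dim limit of 6.40, replicates differed with an SD of 0.70 in space flight and 0.47 in ground control. The defining macrophage marker Csf1r, the M-CSF receptor, was at 14.87 and 14.91 on the space flight arrays, against 15.28 and 15.24 on the ground control arrays, where the highest value of any probe set was 16.0.

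Primary granules, also called azurophil granules, are the first granules that a developing neutrophil makes, at the promyelocyte stage, and the transcripts of their proteins fade as the cell matures. Neutrophil elastase, proteinase 3 and cathepsin G are related serine proteases that cathepsin C activates and that are stored on serglycin in the granule, where they are later used to digest microbes and matrix. Myeloperoxidase makes hypochlorous acid from hydrogen peroxide supplied by the NADPH oxidase. Some of these genes are also transcribed in early monocyte progenitors, and mature macrophages express little of them.

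Of the 6 genes, 5 had both space flight values above both ground control values on their brightest probe set and 1 overlapped. Among all measured genes 23% were separated in this direction and 22.5% in the other, and because the genes were chosen on the differences of this contrast nothing is read from the count. Their median difference was 1.21, against 0.02 over all measured genes, and the differences ran from −0.09 for Ms4a3 to 1.72 for Elane. In limma's test over all measured genes 0 of the 6 passed an adjusted p of 0.05, a level at which 0.0449% of genes were higher and 0.018% were lower. Because of how the genes were chosen, nothing is read from this count either. In bulk RNA, more cells of a type and more RNA per cell cannot be told apart.

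Among the proteases, Prtn3, which encodes proteinase 3, was at 9.40 and 9.96 in space flight replicates 1 and 2, against 8.09 and 8.01 in ground control replicates 1 and 2. In deposited intensities these were 672 and 934 in space flight, against 262 and 232 in ground control. The groups lay 1.31 apart at their nearest values, the widest gap among the 6 genes. Prtn3 averaged 9.68 ± 0.40 in flight cultures and 8.05 ± 0.06 in ground control (SD, n = 2 each), a difference of 1.63 or 3.09-fold. With any 1 array left out the difference ran from 1.34 to 1.91.

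Elane, which encodes neutrophil elastase, was at 8.04 and 8.62 on the space flight arrays, against 7.16 and 6.05 on the ground control arrays. In deposited intensities these were 251 and 371 in space flight, against 123 and 47.9 in ground control. The groups did not overlap, but ground control array 2 lay below the dim limit of 6.40 and the ground control arrays differed by 1.11. Elane averaged 8.33 ± 0.41 in flight cultures and 6.61 ± 0.78 in ground control (SD, n = 2 each), a difference of 1.72 or 3.30-fold. The difference ran from 1.17 without ground control replicate 2 to 2.28 without ground control replicate 1. Its place among the 6 genes depended on the setting: it was the highest in the main setting, but with a pseudocount of 64 Elane stood at 1.32 and Prtn3 at 1.47, and without ground control replicate 2 Mpo stood at 1.67 and Prtn3 at 1.59.

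Ctsg, which encodes cathepsin G, was at 8.33 and 8.88 on the space flight arrays, against 7.24 and 7.97 on the ground control arrays. In deposited intensities these were 310 and 444 in space flight, against 132 and 224 in ground control. Both space flight values were higher, by a gap of 0.36 that was smaller than the 0.73 between the ground control arrays. The difference was 1.00, or 2.00-fold, and was 0.64 without ground control replicate 1 and 0.72 without space flight replicate 2.

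Mpo, which encodes myeloperoxidase, the abundant haem enzyme of the primary granule, was at 9.37 and 10.08 on the space flight arrays, against 8.06 and 8.55 on the ground control arrays. In deposited intensities these were 662 and 1008 in space flight, against 256 and 348 in ground control. The groups lay 0.83 apart at their nearest values. Mpo averaged 9.73 ± 0.50 in flight cultures and 8.30 ± 0.35 in ground control (SD, n = 2 each), a difference of 1.42 or 2.68-fold, with 121 measured genes above it. With any 1 array left out the difference ran from 1.07 to 1.78.

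Ms4a3 encodes a membrane protein with several membrane-spanning segments that marks granulocyte and monocyte progenitors in the mouse. It was at 7.77 and 7.37 on the space flight arrays, against 7.64 and 7.67 on the ground control arrays. In deposited intensities these were 203 and 161 in space flight, against 186 and 178 in ground control. The space flight values lay on both sides of the ground control values. The difference was −0.09, smaller than the SD of 0.28 between the space flight arrays, and it was 0.11 without space flight replicate 2. All 4 values were above the dim limit.

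Serpinb1a encodes a cytosolic serpin that inhibits neutrophil elastase, proteinase 3 and cathepsin G. Its brightest probe set was at 8.01 and 8.93 on the space flight arrays, against 7.93 and 7.95 on the ground control arrays. Space flight array 1 was 0.06 above the higher ground control array, and the difference of 0.53 rested on space flight array 2, being 0.07 without it. The other probe set, of the maker's class that may bind several transcripts, was at 7.56 and 8.39 in space flight, against 5.93 and 7.39 in ground control, a difference of 1.32. Its ground control values differed by 1.46, and 1 of them lay below the dim limit, so the 2 probe sets shared the direction but not the size.

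**Figure D1:**
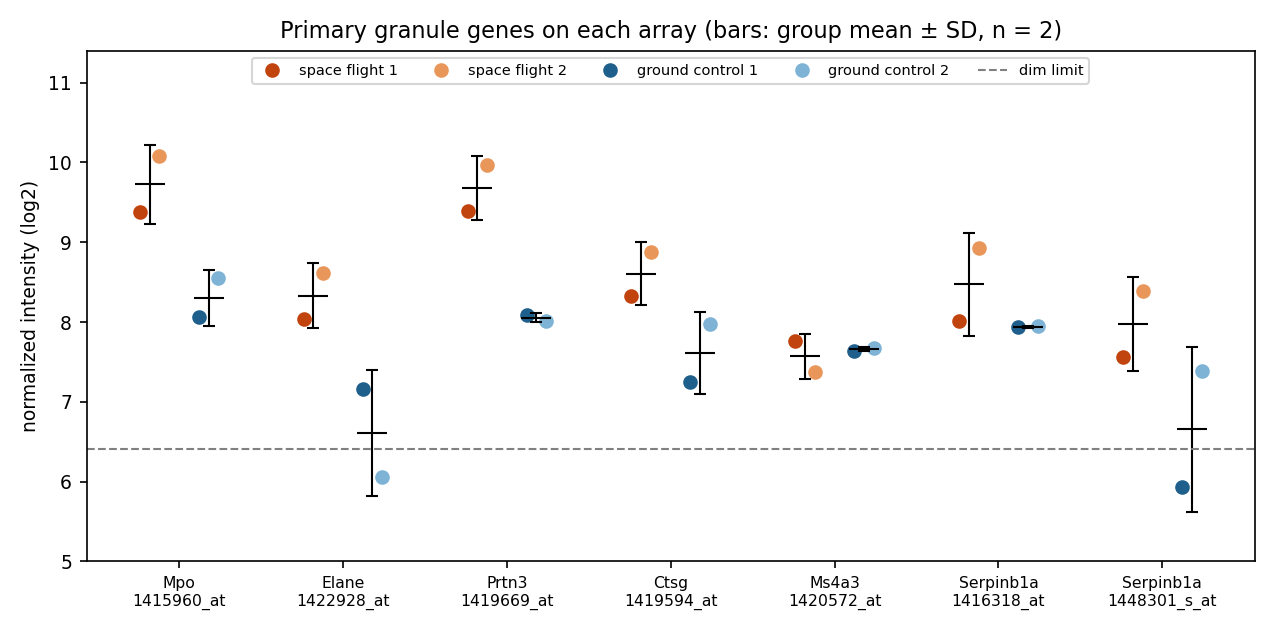
Quantile normalized log2 intensity (vertical axis) of the 7 probe sets of the 6 genes on space flight arrays 1 and 2 (orange) and ground control arrays 1 and 2 (blue). Bars give the group mean and SD of 2 arrays, and the dashed line is the dim limit of 6.40. The groups are apart for Prtn3, Mpo and Elane and overlap for Ms4a3. For Ctsg they are apart by a smaller gap of 0.36, and for the Serpinb1a probe sets by 0.06 and 0.17.

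The replicates of space flight were not alike for these genes. Space flight array 2 was above array 1 for 5 of the 6 genes, by a median of 0.57, against a median of 0.03 over all measured genes, and Ms4a3 was the exception at −0.40. Against the ground control mean, the median of the 6 genes was 0.90 on space flight array 1 and 1.53 on space flight array 2. The controls for RNA quality did not share an order: space flight array 2 had the highest 3'/5' ratio for Gapdh (15.2) and Actb (4.91, against 3.08 on space flight array 1 and 2.30 and 2.84 in ground control). For Tfrc, the transferrin receptor gene, the ratios were 5.50 and 3.47 in space flight, against 4.96 and 7.84 in ground control, with space flight array 2 the lowest. The part of RNA quality in these values was not tested. In ground control the order differed between genes: array 2 was above array 1 by 0.49 for Mpo and 0.73 for Ctsg, and below it by 1.11 for Elane.

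**Figure D2:**
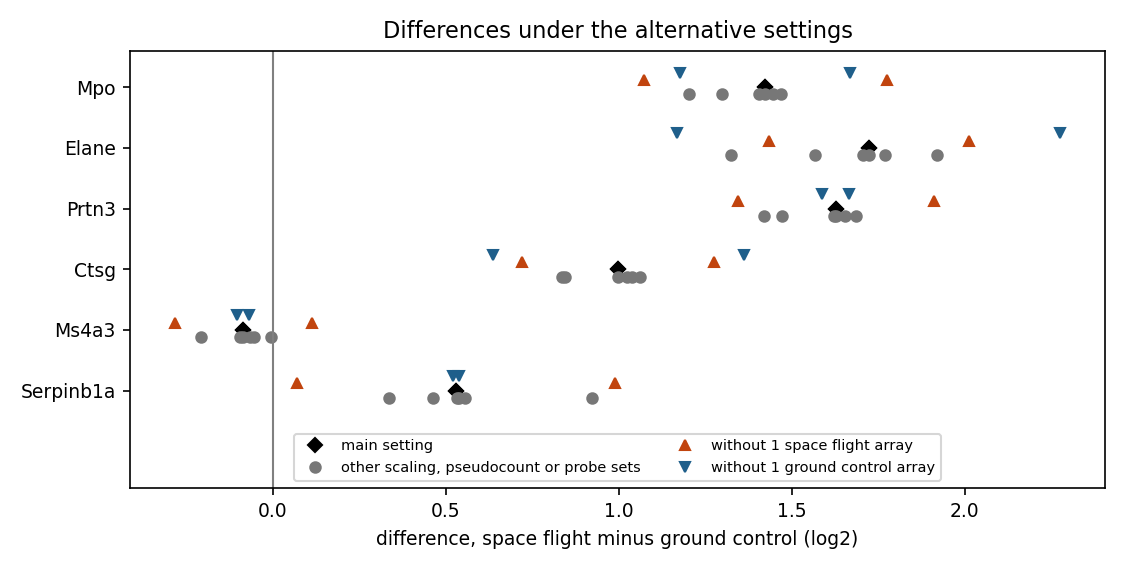
Difference between space flight and ground control on the log2 scale (horizontal axis) for the brightest probe set of each gene. Diamonds give the main setting, grey circles other array scalings, pseudocounts or the mean of all probe sets, and triangles the values with 1 array left out. Prtn3, Mpo, Elane and Ctsg are at or above 0.64 throughout, Serpinb1a comes to 0.07 and Ms4a3 lies around 0.

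The bases before the transcription start are shown as a description. The genes were chosen on this contrast, so no link between these bases and the differences can be read. RefSeq promoter entries of build GRCm38.p6 were found for 5 of the 6 genes, and the 250 bases before each start are printed 5' to 3' on the gene's strand. Capitals mark matches on either strand to an ETS motif of the type that PU.1 binds (AGGAAGT), a Myb motif (CAACNG), a C/EBP motif (TTGCNNAA) and a TATA motif (TATAAG), letters that were chosen with these promoters in view. The printed matches do not overlap each other.
Elane, chr10:79886062-79886311, plus strand: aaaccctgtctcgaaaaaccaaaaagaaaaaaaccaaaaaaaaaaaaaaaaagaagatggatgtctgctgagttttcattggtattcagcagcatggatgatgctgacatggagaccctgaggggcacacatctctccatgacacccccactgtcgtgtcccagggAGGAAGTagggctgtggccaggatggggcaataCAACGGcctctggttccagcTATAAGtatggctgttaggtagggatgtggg
Prtn3, chr10:79879417-79879666, plus strand: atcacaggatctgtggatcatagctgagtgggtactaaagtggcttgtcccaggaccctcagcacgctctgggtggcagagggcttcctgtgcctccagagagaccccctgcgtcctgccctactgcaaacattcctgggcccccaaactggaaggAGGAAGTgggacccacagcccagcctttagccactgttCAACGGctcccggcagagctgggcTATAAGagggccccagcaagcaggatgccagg
Mpo, chr11:87793534-87793783, plus strand: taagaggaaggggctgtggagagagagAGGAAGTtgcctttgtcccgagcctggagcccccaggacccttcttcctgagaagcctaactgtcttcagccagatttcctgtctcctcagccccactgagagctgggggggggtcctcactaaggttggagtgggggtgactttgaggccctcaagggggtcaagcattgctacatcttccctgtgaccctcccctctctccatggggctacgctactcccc
Ctsg, chr14:56102575-56102824, minus strand: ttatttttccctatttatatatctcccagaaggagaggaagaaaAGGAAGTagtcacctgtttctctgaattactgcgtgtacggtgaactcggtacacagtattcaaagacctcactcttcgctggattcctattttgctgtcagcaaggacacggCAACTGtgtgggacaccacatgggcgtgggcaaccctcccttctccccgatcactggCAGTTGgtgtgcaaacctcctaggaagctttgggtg
Ms4a3, chr19:11640852-11641101, minus strand: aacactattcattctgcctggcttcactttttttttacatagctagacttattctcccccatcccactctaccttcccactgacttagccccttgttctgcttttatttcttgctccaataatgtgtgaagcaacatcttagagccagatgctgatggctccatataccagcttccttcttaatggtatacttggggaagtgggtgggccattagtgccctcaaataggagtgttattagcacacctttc

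The promoters of Elane and Prtn3, which are neighbours on chromosome 10, held the same 3 kinds of match in the same order. In Elane the ETS match began 84 bases before the start, the Myb match 51 and the TATA match 31, and in Prtn3 they began 94, 56 and 32 bases before it. Mpo held only an ETS match, 223 bases before the start. Ctsg held an ETS match at 206 bases and Myb matches at 93 and 36 bases, the last on the opposite strand. The window of Ms4a3 held 0 matches to the 4 motifs, and the C/EBP letters were in none of the 5 windows. Only exact matches to the given letters were searched, so an absence of letters does not show that a binding site is absent. Over 32851 promoter windows of this length, 7.69% held the ETS letters, 29.3% the Myb letters, 9.56% the C/EBP letters and 6.65% the TATA letters. These matches are a description of letters and were not tested against the expression values.

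The genes on either side of the 6 were set beside them, 3 protein-coding genes in each direction by RefSeq order. Of 30 such neighbours 26 had a probe set and 12 were measured. Limma's test passed 0 of the 12 (adjusted p from 0.210 to 0.940), and 5 had an unadjusted p under 0.05. At that unadjusted level 6.88% of all measured genes were higher in space flight and 7.32% were lower, the background for this count and for those of the lists below. The differences of the 12 ran from −1.03 to 1.34 with a median of −0.18. Both space flight values were above both ground control values in 4 of the 12 and below them in 5. Among all measured genes 23% and 22.5% were separated in these directions. Beside Elane and Prtn3 on chromosome 10, the splicing regulator Ptbp1 stood at 0.08 ± 0.32 (SE) and the Mediator subunit gene Med16 at −0.11 ± 0.37. In the same stretch R3hdm4 stood at 0.89 ± 0.31 (SE; limma adjusted p = 0.232), with both space flight values higher. Plppr3, next to Prtn3, also had both space flight values higher, but it was not measured. R3hdm4 and Plppr3 were named after their values were seen. Beside Ctsg on chromosome 14, the basophil protease gene Mcpt8 was at 8.10 and 8.83 in space flight, against 7.56 and 6.70 in ground control, a difference of 1.34 ± 0.45 (SE; limma adjusted p = 0.210). Near Ms4a3, Ms4a6d stood at −0.40 ± 0.15, and near Serpinb1a, Serpinb6b stood at −1.03 ± 0.39 and Serpinb9 at −0.42 ± 0.19 (SE). At limma's unadjusted p under 0.05, R3hdm4 and Mcpt8 were higher, and Ms4a6d, Serpinb6b and Serpinb9 were lower. These lower genes were also named here after their values were seen. The peroxidase gene Lpo, next to Mpo on chromosome 11, was below the dim limit on all 4 arrays.

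Genes of the same pathway were taken from lists of granule constituents, activation and sorting, inhibitors, regulators, the oxidase, targets and receptors, and 2 sets of paralogs. Together the 8 lists had 82 measured genes other than the 6, and 0 were called by limma when adjusted over all genes, with 8 higher and 15 lower at an unadjusted p under 0.05, a level reached by 767 higher and 815 lower of the 11141 measured genes. The smallest adjusted p was 0.0561. Their median difference was −0.14, against 0.02 over all measured genes.

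Other constituents of the primary granule, mostly hydrolases that macrophages also keep in lysosomes, had a median difference of −0.06 over 13 measured genes of 18 listed. At an unadjusted p under 0.05, 0 were higher and 4 were lower, and 0 passed the test. The brightest were the lysozyme genes Lyz1 at 0.02 ± 0.10 and Lyz2 at −0.06 ± 0.11 and the cathepsin genes Ctsb at 0.00 ± 0.11 and Ctsd at 0.05 ± 0.11 (SE). These lay near the top of the scale, and Lyz1 and Lyz2 are close copies whose transcripts can share probes. The lysosomal sulphatase gene Arsb had the lowest difference of the list, −1.57 ± 0.26 (SE; limma adjusted p = 0.0568). It was named after its values were seen.

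Genes of activation, packing and sorting had a median of −0.32 over 19 measured genes, with 0 higher and 3 lower at an unadjusted p under 0.05 and 0 past the test. The brightest were Hax1, whose loss causes neutropenia in humans, at −0.17 ± 0.12, the endoplasmic reticulum chaperone genes Canx at −0.16 ± 0.13 and Calr at −0.12 ± 0.18, and the adaptor subunit gene Ap3s1 at −0.32 ± 0.17 (SE). Ctsc, which encodes cathepsin C, the activator of all 3 proteases, was at 11.99 and 11.57 in space flight, against 12.14 and 12.40 in ground control. Srgn, which encodes the storage proteoglycan serglycin, was at 13.48 and 13.42 in space flight, against 13.68 and 13.85 in ground control. Both space flight values of these partner genes were below both ground control values, with differences of −0.49 ± 0.23 and −0.31 ± 0.16 that did not pass (SE; limma adjusted p = 0.376 and 0.411). Ctsc and Srgn were named for their roles after their values were seen.

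Of the inhibitors, 6 were measured and 0 passed, with 1 higher and 2 lower at an unadjusted p under 0.05 and a median of −0.33. Slpi, a secreted inhibitor of elastase and cathepsin G, stood highest at 1.66 ± 0.26 (SE; limma adjusted p = 0.0561). Serpinb1b, a close copy of Serpinb1a, was at 10.74 and 11.11 in space flight, against 10.56 and 10.25 in ground control, a difference of 0.52 ± 0.28 (SE; limma adjusted p = 0.432). Serpinb6a, which inhibits cathepsin G, stood at −0.24 ± 0.15 and the granzyme inhibitor gene Serpinb9 at −0.42 ± 0.19 (SE).

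Regulators of granulocytic genes had a median of 0.24 over 15 measured genes, with 4 higher and 0 lower at an unadjusted p under 0.05 and 0 past the test. Cebpb, a factor of emergency granulopoiesis and of macrophages, stood at 1.12 ± 0.21 (SE; limma adjusted p = 0.0859), Klf4 at 0.47 ± 0.22, the core binding factor subunit gene Cbfb at −0.24 ± 0.25 and Zeb2 at −0.18 ± 0.26 (SE). Of the factors whose motif letters were searched above, Spi1, which encodes PU.1, was at 11.04 and 11.16 in space flight, against 10.62 and 10.69 in ground control. Cebpa was at 8.56 and 8.95 in space flight, against 8.42 and 8.62 in ground control, so its groups overlapped. Myb was at 6.31 and 7.69 in space flight, against 6.16 and 6.29 in ground control, with 1 of 4 values above the dim limit. Gfi1, a repressor needed for neutrophil development, was below the dim limit on all 4 arrays. Spi1, Cebpa, Myb and Gfi1 were named for their roles after their values were seen.

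The oxidase that feeds Mpo had a median of −0.39 over 7 measured genes of that list, all with differences below 0, of which 2 were lower at an unadjusted p under 0.05 and 0 passed. The membrane subunit gene Cyba stood at −0.02 ± 0.11, the cytosolic subunit genes Ncf4 at −0.57 ± 0.19 and Ncf1 at −0.39 ± 0.21, and the small GTPase gene Rac1 at −0.23 ± 0.21 (SE). Cybb, the catalytic subunit, was at 11.32 and 11.28 in space flight, against 12.38 and 12.78 in ground control, a difference of −1.28 ± 0.23 (SE; limma adjusted p = 0.0702), and was named after its values were seen. Over the targets and receptors of the proteases the median was 0.13 for 12 measured genes, with 1 higher and 2 lower at an unadjusted p under 0.05 and 0 past the test. The integrin gene Itgb2 stood at −0.59 ± 0.18, the pore protein gene Gsdmd at −0.02 ± 0.28, the cytokine gene Tnf at 0.18 ± 0.33 and the matrix gene Fn1 at 0.60 ± 0.35 (SE).

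Paralogs did not share one direction. Of the Ms4a and serpin b families 7 genes were measured, with a median of −0.27, 1 higher and 2 lower at an unadjusted p under 0.05 and 0 past the test. Ms4a6d stood at −0.40 ± 0.15, Ms4a6c at −0.62 ± 0.31, Ms4a7 at −0.03 ± 0.21 and Serpinb9b at −0.27 ± 0.22 (SE). Of the granule serine proteases of mast cells, basophils and lymphocytes, 16 had a probe set and only Mcpt8, Gzmm and Tpsab1 were measured, with 0 past the test and 1, Mcpt8, higher at an unadjusted p under 0.05. Gzmm stood at 0.69 ± 0.62 and Tpsab1, a mast cell tryptase gene, at 0.26 ± 0.53 (SE).

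**Figure D3:**
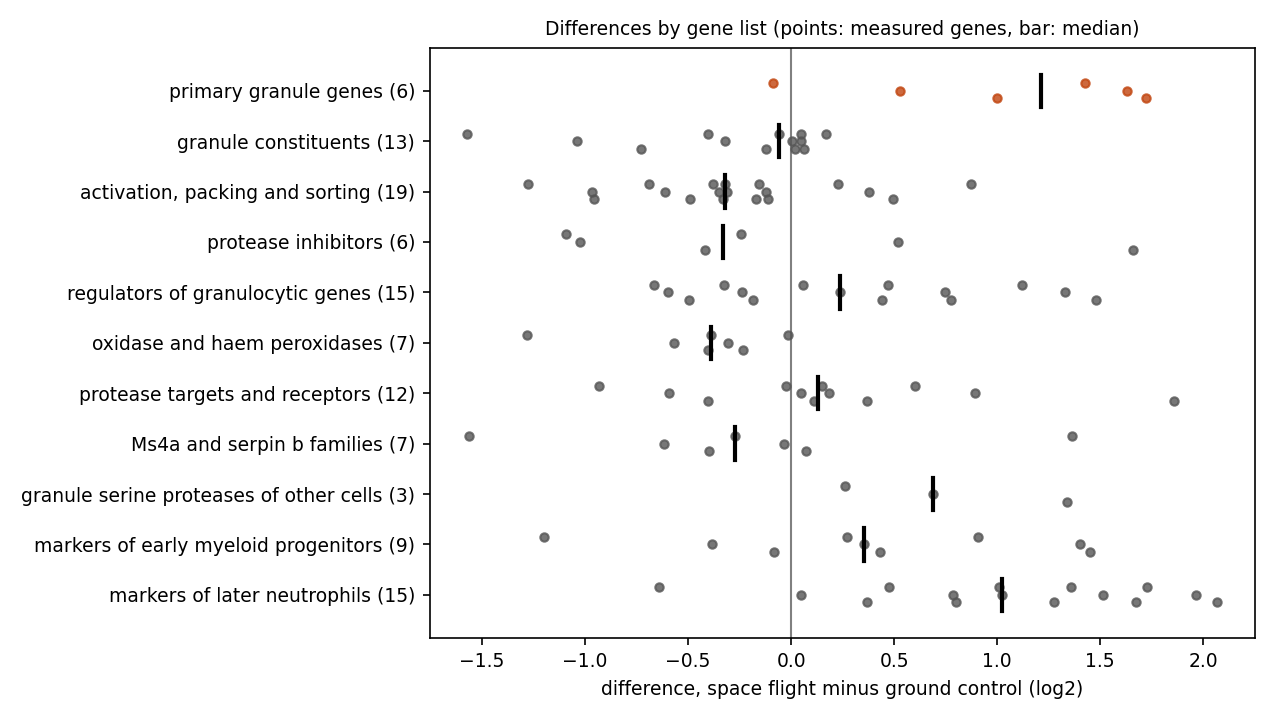
Difference between space flight and ground control on the log2 scale (horizontal axis) for each measured gene of the lists (points), with the list's median as a black bar and the number of measured genes in brackets. The 6 primary granule genes, in orange, have a median of 1.21, the later neutrophil markers 1.02 and the genes of activation, packing and sorting −0.32.

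Markers of other stages and cell types moved with these genes in part. Later neutrophil markers had 16 genes with a probe set and 15 measured, of which 2, Camp and Ngp, rose (limma adjusted p = 0.0347 for each) and 0 fell, with 10 higher and 1 lower at an unadjusted p under 0.05 and a median of 1.02. Under the 14 alternatives Camp was called in 9 and Ngp in 8, and neither was called with 1 median per array, the mean of all probe sets, no filter on dim genes, no intensity trend or each probe set tested on its own. Ngp was also not called with values as deposited. The list's summed deposited intensity was 87833 and 155805 in space flight, against 51340 and 56809 in ground control. S100a8 and S100a9, the brightest of the list, stood at 0.79 ± 0.12 and 1.36 ± 0.27 (SE). Mmp8, the 1 lower gene, stood at −0.64 ± 0.22 (SE; limma adjusted p = 0.217) and was named after its values were seen. The 6 genes and this list differed mostly in the same direction, and space flight array 2 was the higher array in both. That order is not particular to them. Space flight array 2 also had the higher deposited sum in most other lists, among them macrophage, monocyte and erythroid markers. The exceptions were the targets and receptors, the eosinophil markers and the osteoclast markers.

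Markers of early myeloid progenitors had 9 measured genes of 11 with a probe set, with a median of 0.35. Of the 9, 0 passed the test, and 2 were higher and 1 lower at an unadjusted p under 0.05. Their summed intensity was 4343 and 6022 in space flight, against 8640 and 6165 in ground control, of which Cd48 alone gave 46.9% and 53.1% in space flight and 82.3% and 78.2% in ground control. Without Cd48, a sum added after the data were seen, it was 2304 and 2825 in space flight, against 1533 and 1344 in ground control, so the order of the groups turned round. Plac8 stood at 1.45 ± 0.30 and Cd48 at −1.20 ± 0.30 (SE; limma adjusted p = 0.0910 and 0.124). The stem cell factor receptor gene Kit was at 7.65 and 7.34 in space flight, against 8.27 and 6.89 in ground control, and Flt3 was below the dim limit on all 4 arrays. Kit and Flt3 were named for their roles after their values were seen.

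Monocyte markers summed to 6988 and 10162 in space flight, against 12083 and 12184 in ground control, with 7 measured, 0 past the test and 1 higher and 1 lower at an unadjusted p under 0.05. The brightest were F13a1 at −0.65 ± 0.20 and Spn at −0.37 ± 0.32 (SE). Macrophage markers summed to 90817 and 106870 in space flight, against 102481 and 111603 in ground control, with 11 of 13 measured, 0 past the test and 1 higher and 5 lower at an unadjusted p under 0.05. Csf1r stood at −0.37 ± 0.11 and Cd68 at −0.43 ± 0.13 (SE). The macrophage sums overlapped, but all these sums are of deposited intensities, which were not quantile normalized. On the normalized scale, 5 of the 11 measured macrophage markers had both space flight values below both ground control values, and 2 had both above. Among all measured genes 22.5% and 23% did so. The monocyte sums were lower on both space flight arrays, but F13a1 made up 81.2% to 85.4% of them, and without it the sums overlapped, at 1303 and 1911 in space flight, against 1789 and 1781 in ground control. Nr4a1, an orphan nuclear receptor gene of the same list named after its values were seen, stood at 2.33 ± 0.48 (SE; limma adjusted p = 0.0910).

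Mast cell and basophil markers, which bear on Ctsg because mast cells can also contain cathepsin G, had 4 measured genes of 11, with sums of 899 and 1465 in space flight, against 991 and 881 in ground control. The brightest were Gata2 at −0.38 ± 0.37 and Mcpt8, given above, and 0 passed the test with 1 at an unadjusted p under 0.05. Of the 7 genes of this list that were not measured, Ms4a2, Mcpt4 and Il4 were below the dim limit on all 4 arrays and Cpa3, Fcer1a, Cma1 and Tpsb2 reached it on 1 array each. Tpsab1 and Kit were measured and are given above, and the unmeasured genes were named after their values were seen. Erythroid markers had 9 measured of 10, with 0 past the test and 5 higher and 0 lower at an unadjusted p under 0.05, and summed to 6807 and 13842 in space flight, against 1769 and 3612 in ground control. Slc4a1 and Alas2 stood at 2.17 ± 0.43 and 1.23 ± 0.38 (SE). The part of any of these cell types in the values of the 6 genes was not tested.

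The remaining marker lists had few measured genes. In eosinophil markers 1 of 6 was measured, Siglecf at −1.28 ± 0.50, in T and NK cell markers 1 of 8, Cd8a at −0.92 ± 0.47, and in dendritic cell markers 1 of 8, Itgax at −0.76 ± 0.39 (SE). The brightest B cell markers were Ighm at −0.34 ± 0.37 and Cd79a at 0.84 ± 0.50 with 4 of 9 measured, and the brightest megakaryocyte markers were Pf4 at −0.04 ± 0.19 and Vwf at −0.29 ± 0.25 with 6 of 6 measured (SE). Osteoclast markers were led by Ctsk at −1.02 ± 0.20 and Nfatc1 at −0.25 ± 0.34 with 5 of 8 measured, and stromal markers by Pdgfra at −1.55 ± 0.40 and Dcn at 0.83 ± 0.40 with 6 of 9 measured (SE). Limma's test passed 0 genes of these 7 lists, with 3 higher and 3 lower at an unadjusted p under 0.05. Of the 3 higher, 2 were megakaryocyte markers, a list with 0 lower at that level and a median difference of 0.39.

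**Figure D4:**
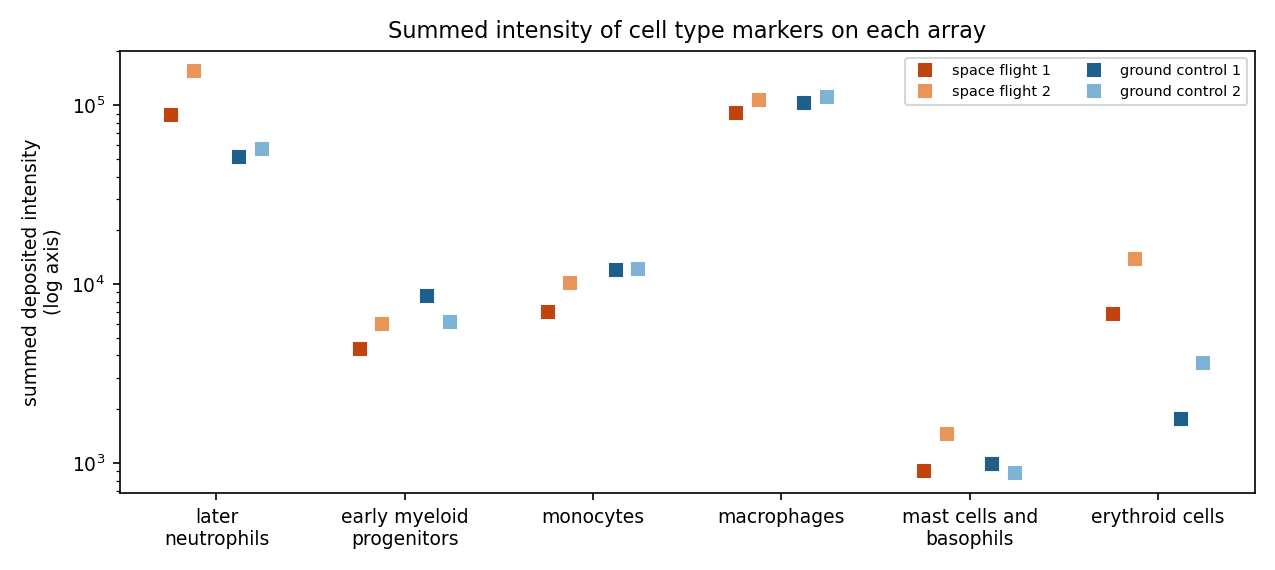
Summed deposited intensity (vertical log axis) of the markers of 6 cell types on space flight arrays 1 and 2 (orange) and ground control arrays 1 and 2 (blue), each sum over the brightest probe set of every listed gene. Sums of later neutrophils and erythroid cells are higher on both space flight arrays than on both ground control arrays, and those of monocytes are lower, a difference that F13a1 carries; sums of different lists are not comparable with each other.

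The pattern of the 6 genes over the 4 arrays was compared with that of every other measured gene by the root mean square distance between log2 values centred on each gene's mean. The mean centred profile of the 6 was 0.27 and 0.76 in space flight, against −0.52 and −0.51 in ground control. The closest genes were Emc8 at a distance of 0.022, Rhpn2 at 0.026, 4930534D22Rik at 0.036, Ehd1 at 0.037 and Mterf1a at 0.041. The 6 genes themselves lay farther from their mean, at 0.25 for Ctsg, 0.27 for Mpo, 0.30 for Prtn3 and Serpinb1a, 0.53 for Elane and 0.64 for Ms4a3. With 4 arrays, such closeness is a description of these arrays.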

How the data were processed

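The authors deposited a linear intensity for each probe set on each array. Per the submitters' processing notes the software was GCOS, and the summarising algorithm is not given in the sources used here. The deposited intensity values had a mean of 500.004 on each array after trimming 2% from each end. From them log2(value + 16) was computed and quantile normalized over the 45037 probe sets that are not controls, in R 4.3.3. A log2 difference on this scale understates changes of dim genes. Probe sets were named from the platform annotation. Each gene was represented by its brightest probe set, and the 11141 genes with a mean at or above 6.40, the median over probe sets, were tested in limma 3.58.1 (lmFit, then eBayes with a trend on intensity; two-sided, Benjamini-Hochberg over all measured genes, threshold 0.05). Errors marked SE come from this fit. The number of arrays, 2 per group, limits precision: the smallest two-sided p of an exact test is 0.333. The limma procedure was tested on simulated data.

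The 6 genes and all lists were chosen with earlier results of these data known. Within lists, the genes named were those past the threshold and the 4 brightest (2 for marker lists); exceptions are stated. Replicate numbers of the 2 groups showed no shared deviation (correlation 0.06 across genes) and were not used as pairs. Promoter sequences are RefSeq's, with build GRCm38.p6, which was used for names and gene order too; the sources used here name no build for the probe sets. Alternatives covered array scaling, pseudocount, probe set choice, the dim filter, the variance trend, a replicate block and each replicate left out.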

Additional observations from a re-analysis of the deposited data

How the results depend on the processing

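The differences of Mpo, Elane, Prtn3, Ctsg and Serpinb1a kept their direction under all alternatives run for them, while Ms4a3 was above 0 without space flight replicate 2. With 1 array left out, the lowest and highest values were 1.07 and 1.78 for Mpo, 1.17 and 2.28 for Elane, 1.34 and 1.91 for Prtn3, 0.64 and 1.36 for Ctsg, 0.07 and 0.99 for Serpinb1a, and −0.28 and 0.11 for Ms4a3. Scaling the arrays to 1 common median put the median difference of all genes at −0.16, and then Mpo stood at 1.20, Elane at 1.57, Prtn3 at 1.42, Ctsg at 0.83, Serpinb1a at 0.34 and Ms4a3 at −0.21. With the mean of both probe sets Serpinb1a stood at 0.92.

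Counts of called genes depended on the setting. Against 7 genes in all, the count was 16 with values as deposited, 21 with cyclic loess, 12 with a pseudocount of 64, 11 with each probe set tested on its own, and 0 with 1 median per array, with the mean of all probe sets, with no filter on dim genes and without an intensity trend. Those 4 limma fits with 0 calls had 1489 of 11138, 1307 of 10072, 1942 of 18193 and 1349 of 11141 tested genes at an unadjusted p under 0.05. It ran from 7 to 1080 with 1 array left out, the highest without space flight replicate 1, with 741 when space flight replicate 2 was dropped and 41 when ground control replicate 2 was dropped; a lone array takes its spread from the remaining group. With the replicate number as a block it was 433, and the differences themselves did not change. For the 8 pathway and paralog lists, against 0 called, the count was 2 with values as deposited, 2 with cyclic loess, 10 with the replicate block and from 0 to 16 with 1 array left out. Of the 6 genes, 3 were called higher with the block, where 433 of the 11141 measured genes were called. Under the other alternatives that kept all arrays 0 of the 6 were called. The 6 were chosen on this contrast, so nothing is read from these counts. The cause of these changes was not tested. The number of arrays limits what can be resolved, and Elane in ground control lay near the dim limit.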
